A study of Mus musculus with 12 samples.

Results

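The genes described here handle vitamin A in the intestinal epithelium. They are 10 genes, Lrat, Rbp2, Bco1, Isx, Adh1, Adh4, Rdh7, Aldh1a1, Aldh8a1 and Cyp26b1, taken by symbol from the 18929 genes listed in either deposited table. They were chosen with earlier results of these data known. All 10 were listed in both tables and all 10 passed the filter on low counts in every comparison. RNA was measured by RNA-Seq in murine jejunal enteroids, cultures of intestinal epithelium grown from crypts, after 5 days in ENR medium, which holds EGF, Noggin and R-Spondin 1. There were 3 groups of 4 libraries. Control enteroids came from villin-Cre mice, which the methods also call wild-type, Hdac1-deficient enteroids from an HDAC1-/- mutant and Hdac2-deficient enteroids from an HDAC2-/- mutant. Mutants were made by crossing floxed mice with villin-Cre mice, so that the recombinase was driven in intestinal epithelial cells, on a mixed C57BL/6J, 129SV and CD1 background. The methods describe crypts of 1 mouse per genotype, and ages are not given in the sources used here. A genotype therefore cannot be told apart from its mouse and culture line, and p-values measure the spread between libraries, which may be technical.

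Between 20693200 and 30658628 reads were counted on genes per library, so that 3 counts correspond to 0.0979 to 0.145 CPM (counts scaled to a common library size). The targeted genes followed the labels. Hdac1 was at 3.38 to 5.08 CPM in the 4 Hdac1-deficient libraries and at 88.0 to 94.5 CPM in control, and Hdac2 was at 73.2 to 78.8 CPM in the 4 Hdac2-deficient libraries and at 132.1 to 140.2 CPM in control. Hdac1 fell by 4.40 and Hdac2 fell by 0.84 on the log2 scale in their own mutant. Which exons the deletion removes is not used here, so reads of Hdac2 may include those of exons that remain. All 17 enterocyte markers were listed, and their summed level was 12274 to 12758 CPM in control. Of the 7 mesenchymal markers, 5 were not listed and the other 2 summed to at most 0.356 CPM in any library. Of the 6 immune cell markers, 2 were not listed and the other 4 summed to 1.88 to 2.26 CPM in control, 2.69 to 3.77 without Hdac1 and 4.08 to 5.08 without Hdac2.

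Vitamin A reaches the enterocyte as retinyl esters or as carotenoids. BCO1 cleaves beta-carotene to retinal, RBP2 carries retinol and retinal in the enterocyte, and LRAT esterifies retinol for export or storage. Retinol is oxidised to retinal by alcohol dehydrogenases and short-chain retinol dehydrogenases, retinal is oxidised to retinoic acid by retinal dehydrogenases, and CYP26 enzymes degrade retinoic acid. Retinoic acid acts through nuclear receptors, RAR and RXR, and in the intestine it induces ISX, a transcription factor that represses Bco1 and Scarb1.

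All 10 genes had a promoter in the RefSeq table (GRCm38.p6, 300 bases per promoter, 12 promoters for the 10 genes). The 200 bases before the start site are shown for Bco1, Rbp2, Adh4, Lrat and Cyp26b1. The promoters of Bco1 and Rbp2, which moved in opposite directions, both hold the letters CAAAGGTCA. That of Adh4 holds AGGTCA at 2 places, and those of Lrat and Cyp26b1 hold neither sequence. Capitals mark AGGTCA, CAAAGGTCA and TATAAA on either strand (AGGTCA lies within CAAAGGTCA). The stretches are chr8:117095665-117095864 (plus strand) for Bco1, chr9:98490337-98490536 (plus strand) for Rbp2, chr3:138415297-138415496 (plus strand) for Adh4, chr3:82903975-82904174 (minus strand) for Lrat and chr6:84593811-84594010 (minus strand) for Cyp26b1, each written 5′ to 3′.
Bco1: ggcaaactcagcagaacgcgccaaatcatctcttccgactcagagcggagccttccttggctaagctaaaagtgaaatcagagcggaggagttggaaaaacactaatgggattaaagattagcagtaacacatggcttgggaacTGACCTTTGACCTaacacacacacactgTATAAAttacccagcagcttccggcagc
Rbp2: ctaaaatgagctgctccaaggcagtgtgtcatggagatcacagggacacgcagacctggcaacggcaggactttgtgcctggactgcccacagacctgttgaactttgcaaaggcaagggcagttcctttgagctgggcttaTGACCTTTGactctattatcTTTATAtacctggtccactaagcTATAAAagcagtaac
Adh4: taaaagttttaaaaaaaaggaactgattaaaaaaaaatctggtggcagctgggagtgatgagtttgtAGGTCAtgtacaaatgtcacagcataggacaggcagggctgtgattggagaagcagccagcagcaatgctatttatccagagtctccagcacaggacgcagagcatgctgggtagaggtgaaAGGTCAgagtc
Lrat: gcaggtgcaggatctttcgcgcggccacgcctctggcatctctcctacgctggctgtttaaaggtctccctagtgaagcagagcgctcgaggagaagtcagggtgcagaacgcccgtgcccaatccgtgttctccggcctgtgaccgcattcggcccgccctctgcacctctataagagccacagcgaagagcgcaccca
Cyp26b1: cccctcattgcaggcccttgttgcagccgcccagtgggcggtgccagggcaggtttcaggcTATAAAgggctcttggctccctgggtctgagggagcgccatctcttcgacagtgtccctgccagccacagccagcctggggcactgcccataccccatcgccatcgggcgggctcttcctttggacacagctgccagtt
AGGTCA is the core motif that RAR, RXR and other nuclear receptors of the intestine, among them HNF4A, recognise. It was found in 4 of the 12 promoters of the 10 genes (those of Bco1, Rbp2, Adh4 and 1 of Rdh7) and in 16.3% of all 32851 promoters of this length. CAAAGGTCA, chosen after the sequences were seen, was found in 0.478% of all promoters and, among the 10 genes, in Bco1 and Rbp2. The Bco1 promoter also holds AGGTCANAGGTCA, a direct repeat spaced by 1 base that overlaps CAAAGGTCA and is found in 13 of all promoters. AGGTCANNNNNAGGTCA, the repeat spaced by 5 bases, was in none of the promoters of the 10 genes. The other sequences searched were TATAAA, in 3 of the 10 genes and 13.6% of all promoters, AGATAA, in 3 genes and 11.2%, and TTTAT, in 7 genes and 40.0%. These matches describe the letters in the window and no binding was measured.

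To ask which retinoid genes changed in the absence of each deacetylase, each mutant was compared with the same 4 control libraries. Differences were tested by edgeR's quasi-likelihood F test with Benjamini-Hochberg adjustment over all genes tested, and "rose" or "fell" is written where the adjusted p was 0.05 or less. In Hdac1-deficient enteroids 5 of the 10 genes rose (Lrat, Rbp2, Adh1, Adh4 and Rdh7), where 32.7% of the 14246 genes tested rose, and 4 fell (Bco1, Isx, Aldh8a1 and Cyp26b1), where 31.9% fell. In Hdac2-deficient enteroids the same 5 genes rose, where 31.4% of 14007 genes rose, and 3 fell (Bco1, Aldh8a1 and Cyp26b1), where 30.9% fell. With a limit of 2-fold, 4 genes were higher and 2 lower in Hdac1-deficient enteroids, where the shares over all genes were 6.87% and 3.71%. With the same limit 3 were higher and 3 lower in Hdac2-deficient enteroids, where the shares were 5.45% and 2.84%. The median log2 fold change of the 10 genes was 0.49 and 0.28, and over all genes tested it was -0.004 in either comparison. The mutant and control libraries did not overlap for 9 of the 10 genes in either comparison, as for 58.4% and 56.0% of all genes tested in them. Because the 10 genes were chosen with earlier results known, these counts and medians, here and below, only describe them. They cannot show that retinoid genes changed more often than other genes. Among the 10 genes, those that handle or oxidise retinol were thus higher in both mutants, and Bco1, Cyp26b1 and Aldh8a1 were lower.

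**Figure D1:**
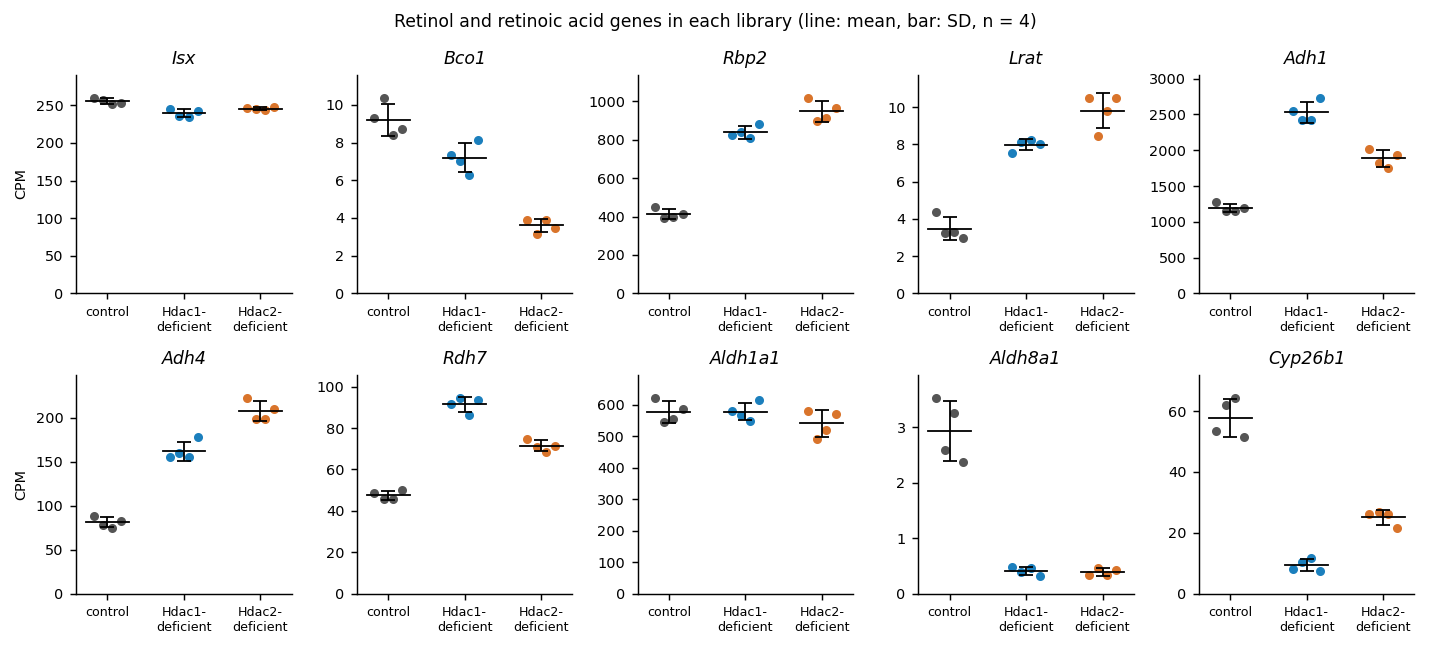
Level of the 10 genes in each library, in CPM from 0, in control, Hdac1-deficient and Hdac2-deficient enteroids, with 1 point per library, the mean as a line and the SD as a bar (n = 4). For Aldh1a1 the libraries of the 3 groups overlap, for Isx those of the mutants lie just below control, and for the other 8 genes no mutant library overlaps with control.

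**Figure D2:**
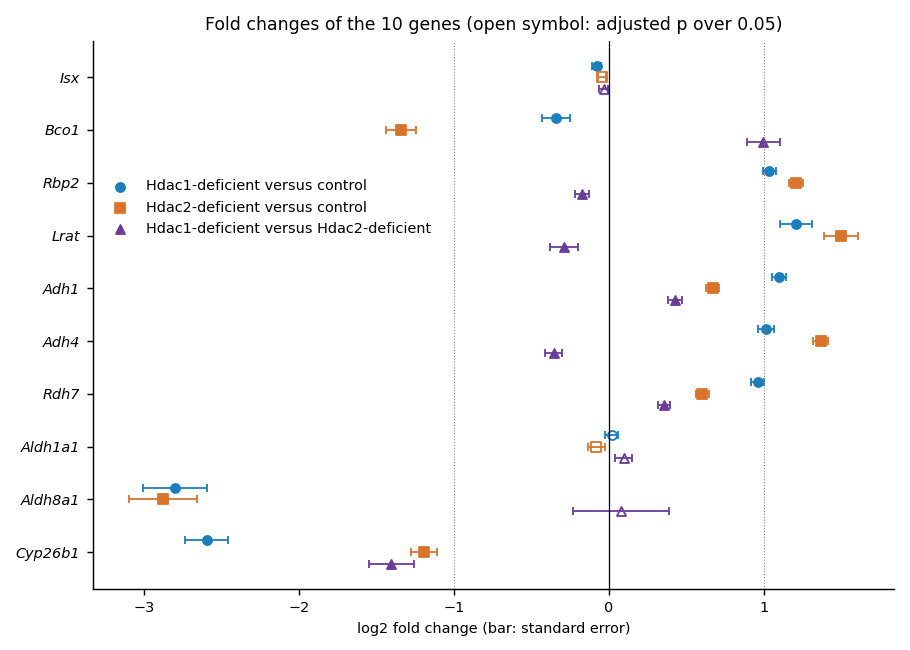
Log2 fold change with its standard error for the 10 genes, each mutant against control and Hdac1-deficient against Hdac2-deficient. Dotted lines mark 2-fold, filled symbols an adjusted p of at most 0.05. Bco1 and Cyp26b1 lie farthest apart between the mutants.

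RNA of the enzyme that makes retinal from beta-carotene was lower in both mutants, and RNA of its known repressor was almost level. Protein and activity of the repressor were not measured. Bco1 (ENSMUSG00000031845, chromosome 8, 117095854 to 117133720, plus strand, GRCm38) was at 9.29, 10.4, 8.42 and 8.72 CPM in control, at 7.32, 7.03, 6.29 and 8.16 CPM without Hdac1 and at 3.91, 3.17, 3.87 and 3.47 CPM without Hdac2. The 3 groups did not overlap, with control highest and Hdac2-deficient lowest. Bco1 fell by 0.34 on the log2 scale without Hdac1 (SE 0.09, adjusted p = 0.0025, edgeR) and by 1.34 without Hdac2 (SE 0.10, adjusted p = 1.7e-10, edgeR). Isx (ENSMUSG00000031621, chromosome 8, 74873173 to 74893506, plus strand) was at 251.7 to 259.7 CPM in control, 234.1 to 245.0 CPM without Hdac1 and 243.1 to 247.7 CPM without Hdac2. Its mutant libraries all lay below control, by a small margin. The log2 fold change was -0.08 without Hdac1 (SE 0.03, adjusted p = 0.028, edgeR) and -0.05 without Hdac2 (SE 0.03, adjusted p = 0.13, edgeR; 95% interval -0.10 to 0.01). The fall of Isx without Hdac1 no longer passed the test when control library 2 (adjusted p = 0.055), Hdac1-deficient library 2 (0.081) or Hdac1-deficient library 3 (0.082) was left out.

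The retinol binding protein and the esterifying enzyme were about 2 times their control level or more in both mutants. Rbp2 (ENSMUSG00000032454, chromosome 9, 98486115 to 98509781, plus strand) was at 449.7, 391.8, 397.8 and 414.0 CPM in control, at 822.4, 840.3, 807.5 and 883.2 CPM without Hdac1 and at 1018, 899.1, 910.9 and 964.7 CPM without Hdac2. Every mutant library lay far above every control library. Rbp2 rose by 1.04 on the log2 scale without Hdac1 (SE 0.04, adjusted p = 5.8e-14, edgeR) and by 1.21 without Hdac2 (SE 0.05, adjusted p = 1.9e-12, edgeR). Lrat (ENSMUSG00000028003, chromosome 3, 82892579 to 82903973, minus strand) was counted 71 to 130 times per library in control, at 4.36, 3.25, 3.32 and 2.96 CPM. It was at 7.54, 8.16, 8.23 and 8.05 CPM without Hdac1 and at 10.5, 8.48, 9.82 and 10.5 CPM without Hdac2. The groups did not overlap, and Hdac2-deficient libraries were highest. Lrat rose by 1.21 on the log2 scale without Hdac1 (SE 0.10, adjusted p = 3.8e-09, edgeR) and by 1.50 without Hdac2 (SE 0.11, adjusted p = 1.3e-10, edgeR). The fitted rise of Lrat was the larger of the pair in either mutant.

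Adh1, Adh4 and Rdh7, whose enzymes oxidise retinol, rose in both mutants, with Adh1 and Rdh7 higher without Hdac1 and Adh4 higher without Hdac2. Adh1 (ENSMUSG00000074207, chromosome 3, 138260991 to 138290698, plus strand), a class I alcohol dehydrogenase, was at 1278, 1149, 1152 and 1198 CPM in control, at 2546, 2430, 2419 and 2730 CPM without Hdac1 and at 2024, 1828, 1753 and 1940 CPM without Hdac2. Hdac1-deficient libraries were highest, and no group overlapped with another. Adh1 rose by 1.10 on the log2 scale without Hdac1 (SE 0.04, adjusted p = 4.2e-14, edgeR) and by 0.67 without Hdac2 (SE 0.04, adjusted p = 3.1e-10, edgeR). Of its annotated exon bases, 136 (6.09%) also belong to the antisense gene Gm16559, and whether the counting used strand is not given in the sources used here.

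Adh4 (ENSMUSG00000037797, chromosome 3, 138415466 to 138430892, plus strand), a class II alcohol dehydrogenase, was at 88.3, 78.0, 75.1 and 82.9 CPM in control, at 155.2, 159.5, 155.3 and 177.7 CPM without Hdac1 and at 222.2, 199.1, 198.8 and 210.4 CPM without Hdac2. The order was control, Hdac1-deficient, Hdac2-deficient with no overlap. Adh4 rose by 1.01 on the log2 scale without Hdac1 (SE 0.05, adjusted p = 6.6e-11, edgeR) and by 1.37 without Hdac2 (SE 0.05, adjusted p = 9.9e-13, edgeR). Its rise without Hdac1 sat at the 2-fold limit and was 0.99, 0.97 and 0.97 on the log2 scale without control library 2, control library 3 or Hdac1-deficient library 4, which left 3 genes over 2-fold. Rdh7 (ENSMUSG00000040134, chromosome 10, 127884028 to 127888817, minus strand), a short-chain dehydrogenase of the family that oxidises retinol and steroids, was at 45.6 to 50.2 CPM in control, 86.2 to 94.4 CPM without Hdac1 and 68.5 to 74.9 CPM without Hdac2. Again the groups did not overlap. Rdh7 rose by 0.96 on the log2 scale without Hdac1 (SE 0.04, adjusted p = 1.7e-13, edgeR) and by 0.60 without Hdac2 (SE 0.04, adjusted p = 6.7e-11, edgeR). Of its 100-base exon windows, 4.05% occur unchanged in related genes (Hsd17b6, Rdh1, Rdh16f1, Rdh18-ps and Rdh19), so some of its reads may be shared.

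Adh1 and Adh4 lie in 1 cluster of alcohol dehydrogenase genes on chromosome 3, and the genes of the cluster did not move alike. Adh7, a class IV enzyme that oxidises retinol, starts 43.2 kb before Adh1 and rose by 1.03 without Hdac1 and 1.13 without Hdac2 on the log2 scale (adjusted p = 7.7e-05 and 3.8e-08, edgeR). Adh6a starts 52.3 kb after Adh1 and was at 181.6 to 201.6 CPM in control, 15.9 to 17.1 CPM without Hdac1 and 193.3 to 216.2 CPM without Hdac2. Adh6a fell by 3.50 on the log2 scale without Hdac1 (SE 0.05, adjusted p = 4.1e-22, edgeR), and its log2 fold change without Hdac2 was 0.09 (SE 0.04, adjusted p = 0.048, edgeR), a call that was lost without control library 2 (adjusted p = 0.14), control library 3 (0.19), Hdac2-deficient library 1 (0.091) or Hdac2-deficient library 4 (0.25), by DESeq2 (0.084), with relative log expression factors (0.0501), with no filter (0.060) and in the fit of all 12 libraries (0.060). Adh4 starts 154.5 kb after Adh1, and Adh5, which follows it and is named after its values were seen, was higher by 0.27 and 0.09 on the log2 scale (adjusted p = 1.1e-06 and 0.011, edgeR). The latter call was lost without control library 3 (adjusted p = 0.052) or control library 4 (0.053). Among the neighbours outside the family, also named after their values were seen, Mttp rose by 0.81 and 0.83 on the log2 scale and Trmt10a had -0.11 and -0.10 (adjusted p = 0.16 and 0.18, edgeR). Another such neighbour, the antisense gene 0610031O16Rik, spans Adh7 on the opposite strand. It rose by 2.17 without Hdac1 and had 0.25 without Hdac2 (log2, adjusted p = 6.2e-08 and 0.53, edgeR). Whether Adh7 shares reads with it was not tested. In Hdac1-deficient enteroids a 3.50 log2 fall of Adh6a thus lay between the rises of Adh1 and Adh4.

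**Figure D3:**
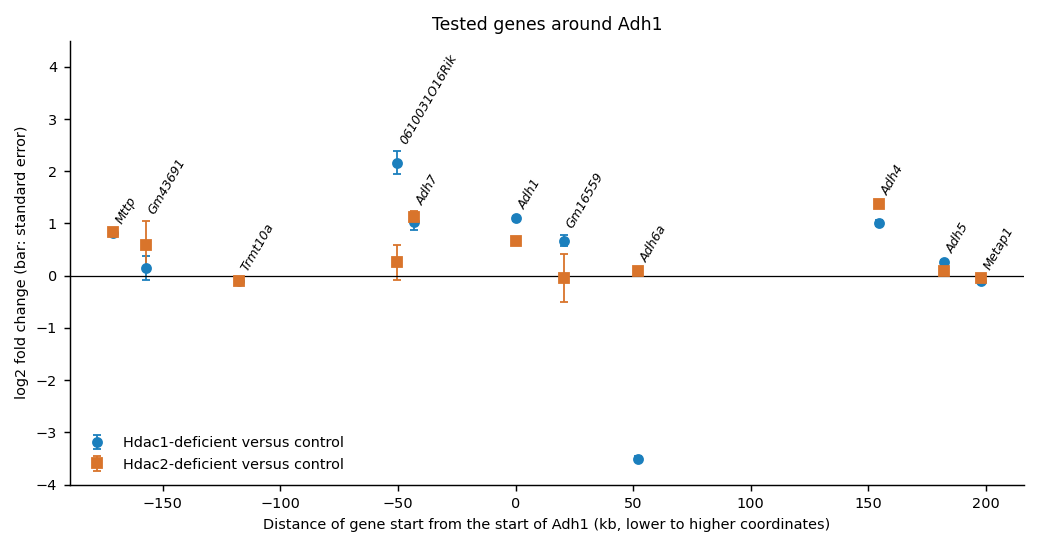
Log2 fold change with its standard error of the genes tested within 250 kb of Adh1, against the distance of their start from that of Adh1 in kb, for Hdac1-deficient and Hdac2-deficient enteroids against control. Adh7, Adh1 and Adh4 lie above 0 in both comparisons, and Adh6a, between Adh1 and Adh4, lies at -3.50 without Hdac1 and 0.09 without Hdac2.

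The main retinal dehydrogenase of the list did not pass the test in either mutant, while the weakly expressed Aldh8a1 had the largest fitted fall of the 10 genes. Aldh1a1 (ENSMUSG00000053279, chromosome 19, 20492715 to 20643465, plus strand), which oxidises retinal to retinoic acid, was at 621.2, 544.8, 554.4 and 586.9 CPM in control, at 579.9, 568.5, 549.2 and 614.4 CPM without Hdac1 and at 581.3, 492.8, 519.9 and 570.4 CPM without Hdac2. The 3 groups overlapped. Its log2 fold change was 0.02 without Hdac1 (SE 0.04, adjusted p = 0.73, edgeR; 95% interval -0.07 to 0.11) and -0.08 without Hdac2 (SE 0.06, adjusted p = 0.22, edgeR; 95% interval -0.20 to 0.04). With the replicate number as a block, Aldh1a1 did pass the test without Hdac2 (-0.08, SE 0.03, adjusted p = 0.0088, edgeR). The other genes of chromosome 19 lay lower, their median being -0.52 on the log2 scale over 508 genes tested without Hdac1 and -0.52 over 497 without Hdac2, and 0.02 over 512 between the mutants. Aldh1a1 lay 0.54 and 0.44 above those medians on the log2 scale, and 17.5% and 18.7% of the other chromosome 19 genes tested were at its value or higher. The part of this shift in the values of Aldh1a1 was not tested. Aldh8a1 (ENSMUSG00000037542, chromosome 10, 21377291 to 21396585, plus strand), an aldehyde dehydrogenase known to act on 9-cis-retinal, was at 3.52, 2.58, 3.25 and 2.38 CPM in control. It was at 0.488, 0.389, 0.459 and 0.326 CPM without Hdac1 and at 0.332, 0.469, 0.339 and 0.434 CPM without Hdac2, from 7 to 14 counts per library. The mutants overlapped with each other and lay well below control. Aldh8a1 fell by 2.80 on the log2 scale without Hdac1 (SE 0.21, adjusted p = 3.3e-10, edgeR) and by 2.88 without Hdac2 (SE 0.22, adjusted p = 2.5e-10, edgeR). Without Hdac1 its 95% interval (-3.23 to -2.37) overlapped that of Cyp26b1 (-2.92 to -2.28), and the difference between the 2 genes was not tested.

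Cyp26b1, the hydroxylase that clears retinoic acid, was lower in both mutants and much more so without Hdac1. Cyp26b1 (ENSMUSG00000063415, chromosome 6, 84571414 to 84593908, minus strand) was at 53.6, 62.1, 64.2 and 51.4 CPM in control, at 8.07, 10.3, 11.8 and 7.40 CPM without Hdac1 and at 26.0, 26.8, 26.1 and 21.5 CPM without Hdac2. No library of 1 group overlapped with another group. Cyp26b1 fell by 2.60 on the log2 scale without Hdac1 (SE 0.14, adjusted p = 3.5e-07, edgeR) and by 1.19 without Hdac2 (SE 0.09, adjusted p = 2.3e-07, edgeR). The related Cyp26a1 was listed at 0 to 4 counts per library and was not tested.

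The mutants were then compared directly, in a fit of all 12 libraries. Of the 10 genes, 3 were higher without Hdac1 than without Hdac2 (Bco1, Adh1 and Rdh7), where 22.3% of the 14510 genes tested were, and 4 were lower (Rbp2, Lrat, Adh4 and Cyp26b1), where 23.7% were. Only Cyp26b1 passed the 2-fold limit, on the lower side, where 2.89% of all genes did, and none of the 10 genes did so on the higher side, where 2.74% did. The libraries of the mutants did not overlap for 7 of the 10 genes, as for 41.7% of all genes tested. RNA of the retinol oxidising members differed in both directions. Adh1 (0.43, SE 0.05, adjusted p = 2.2e-07) and Rdh7 (0.36, SE 0.04, adjusted p = 4.4e-08) were higher without Hdac1 and Adh4 (-0.36, SE 0.05, adjusted p = 3.6e-05, all log2, edgeR) was higher without Hdac2. Rbp2 and Lrat differed by -0.18 (SE 0.04, adjusted p = 0.0026, edgeR) and -0.29 (SE 0.09, adjusted p = 0.010, edgeR) on the log2 scale. The largest differences were those of Cyp26b1, at -1.41 (SE 0.15, adjusted p = 1.3e-05, edgeR), and Bco1, at 0.997 (SE 0.11, adjusted p = 1.7e-08, edgeR). Bco1 lay just under the 2-fold limit and passed it, at 1.00 to 1.06, when control library 1, Hdac1-deficient library 2 or 3, or Hdac2-deficient library 1 or 3 was left out. Isx (-0.04, adjusted p = 0.32; 95% interval -0.09 to 0.02), Aldh1a1 (0.10, adjusted p = 0.16; -0.02 to 0.21) and Aldh8a1 (0.08, adjusted p = 0.87; -0.56 to 0.71) did not pass the test (log2, edgeR). Without Hdac2-deficient library 1, Aldh1a1 passed it at 0.13 (adjusted p = 0.0499). With the replicate number as a block, Aldh1a1 passed at 0.10 (adjusted p = 0.015, edgeR).

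Levels were compared between genes per kb of annotated exon. In control the order was Adh1 (534.8 CPM per kb), Rbp2 (429.6), Isx (142.4), Aldh1a1 (116.8), Adh4 (55.9), Rdh7 (28.3), Cyp26b1 (10.8), Bco1 (3.62), Aldh8a1 (0.668) and Lrat (0.649). Neighbours did not overlap between libraries except Aldh8a1 and Lrat. Adh1, Rbp2, Adh4 and Rdh7 thus stood far above Bco1 and Lrat in control, which does not extend to all retinol oxidising, binding or esterifying genes. In Hdac1-deficient enteroids Cyp26b1 dropped below Bco1, to 1.76 CPM per kb, where its libraries overlapped with those of Lrat (1.49), and Adh4 reached 111.7 and overlapped with Aldh1a1 (117.1). In Hdac2-deficient enteroids Rbp2 (985.5 CPM per kb) stood above Adh1 (844.7), and Lrat (1.83) stood above Bco1 (1.42). With the length of the longest transcript in place of all exons, Adh1 stood first in every group and Aldh1a1 stood above Isx.

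**Figure D4:**
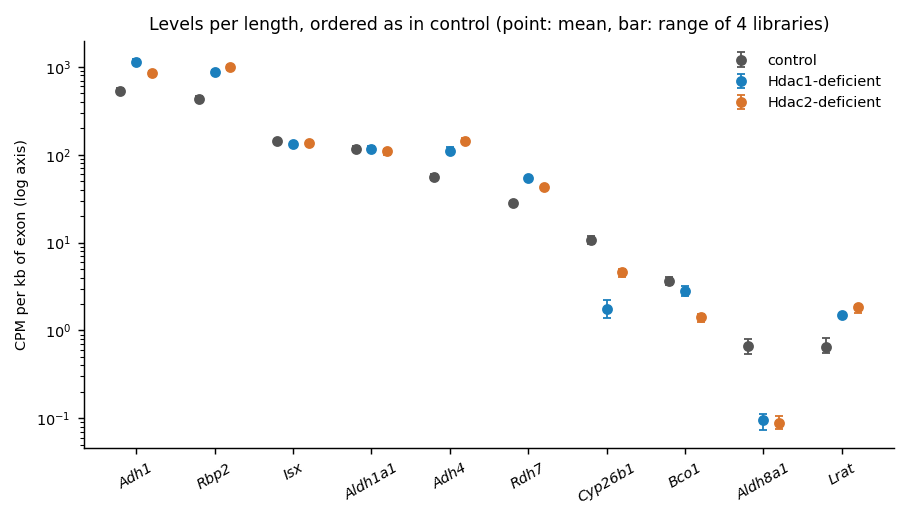
Level per kb of exon on a log axis for the 10 genes, ordered as in control, with the mean and the range of 4 libraries per group. Levels run from Adh1 and Rbp2 at 534.8 and 429.6 CPM per kb in control down to Aldh8a1 and Lrat below 1 in control, with Cyp26b1, Bco1, Aldh8a1 and Lrat changing places between the groups.

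Other genes of the pathway were described from 7 lists of 63 genes, of which 47 were listed in either table. Without Hdac1, 19 of the 37 tested rose and 10 fell, and without Hdac2, 23 of the 36 tested rose and 7 fell. Over all genes tested the shares were 32.7% and 31.9% without Hdac1 and 31.4% and 30.9% without Hdac2, so that the genes that fell were no larger a share of the lists than of all genes. The median log2 fold changes were 0.22 and 0.24. Between the mutants, 9 of 38 were higher without Hdac1 and 15 lower, beside 22.3% and 23.7% of all genes tested. The lists too were chosen with earlier results known, so their counts are descriptive.

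Among 8 tested genes of carotenoid uptake, cleavage and ester handling, 6 rose and 1 fell without Hdac1, and 6 of 7 rose and 1 fell without Hdac2. Bco2, the mitochondrial carotenoid oxygenase that cleaves off centre, was at 11.5 ± 1.31 CPM in control, 51.1 ± 1.70 without Hdac1 and 20.3 ± 1.97 without Hdac2 (SD, n = 4), a rise of 2.17 and 0.83 on the log2 scale (adjusted p = 1.2e-16 and 2.2e-08, edgeR). It thus rose where Bco1 fell. Scarb1, the carotenoid uptake receptor that ISX represses as it does Bco1, fell by 0.53 without Hdac1 (adjusted p = 1.5e-09, edgeR) and rose by 0.12 without Hdac2 (adjusted p = 0.014, edgeR). The latter call was lost without control library 2 (adjusted p = 0.051), control library 4 (0.071) or Hdac2-deficient library 2 (0.064). RNA of Bco1 and of Scarb1 was thus lower without Hdac1, and without Hdac2 the 2 genes did not move together. The part of ISX in these changes was not tested. Cd36, a lipid and carotenoid uptake receptor, rose by 0.85 and 1.17, and Dgat1, which can esterify retinol, rose by 0.68 and 0.88 on the log2 scale. Stra6l, the gene of an RBP receptor, was the 1 gene that fell without Hdac2, by 0.34, and it rose by 0.54 without Hdac1 (adjusted p = 6.9e-05 and 3.5e-07, edgeR).

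Of 4 tested binding proteins 3 rose and 1 fell without Hdac1, and all 4 rose without Hdac2. Rbp7, a cellular retinol binding protein like Rbp2, was at 1.79 ± 0.196 CPM in control, 8.34 ± 0.381 without Hdac1 and 5.36 ± 0.783 without Hdac2 (SD, n = 4) and rose by 2.24 and 1.60 on the log2 scale (adjusted p = 3.4e-13 and 1.4e-09, edgeR). Rbp4 and Ttr, which carry retinol in plasma, rose by 0.60 and 0.67 without Hdac1 and by 0.76 and 0.56 without Hdac2. Rbp4 lay near the limit without Hdac1 (adjusted p = 0.018, and 0.057 without control library 3, edgeR). Fabp5, which carries fatty acids and retinoic acid, fell by 0.37 without Hdac1 and rose by 0.37 without Hdac2 (adjusted p = 1.3e-04 and 2.7e-05, edgeR).

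Of 15 other genes tested from a list of retinol dehydrogenases and retinal reductases, 8 rose and 3 fell without Hdac1, and 12 rose and 1 fell without Hdac2. Over all genes tested the shares were 32.7% and 31.9% in the first comparison and 31.4% and 30.9% in the second. The list was drawn by family and includes Adh5 and Adh6a, and action on retinol was not measured for any of its genes. Rdh10, a retinol dehydrogenase needed in the embryo for retinoic acid synthesis, rose from 43.4 to 49.9 CPM in control to 69.8 to 77.6 CPM without Hdac1 and 83.6 to 89.4 CPM without Hdac2, by 0.68 and 0.88 on the log2 scale (adjusted p = 1.6e-10 and 2.0e-13, edgeR). Akr1b8, an aldo-keto reductase, rose by 1.26 without Hdac2 and had -0.11 without Hdac1 (adjusted p = 1.6e-14 and 0.15, edgeR), and it passed the test in the latter without Hdac1-deficient library 4 (-0.17, adjusted p = 0.021). Beside Adh6a, Sdr16c5 fell in both mutants, by 0.74 and 1.62, and Sdr16c6 fell by 1.26 without Hdac1 (adjusted p = 8.5e-04, edgeR), all at 0.229 to 1.42 CPM. From the list of other retinal dehydrogenases only Aldh1a7 was tested, a relative of Aldh1a1 listed by family. Whether its enzyme acts on retinal was not measured. Aldh1a7 also lies on chromosome 19 and holds 1 of the 100-base exon windows of Aldh1a1. It fell by 0.93 and 0.74 on the log2 scale (adjusted p = 7.0e-14 and 1.7e-14, edgeR), 0.42 and 0.23 below the median of that chromosome's other genes. Rbp4 lies on chromosome 19 as well, 1.11 and 1.28 above that median.

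Of the 5 receptors tested, Rxra rose by 0.55 and 0.37 on the log2 scale (adjusted p = 3.7e-11 and 3.8e-09, edgeR) and Rarb fell by 2.27 and 0.49 (adjusted p = 5.8e-11 and 7.2e-04, edgeR). Rarb, itself a classical target of retinoic acid, was at 4.80 to 6.07 CPM in control, 0.750 to 1.36 CPM without Hdac1 and 3.29 to 4.42 CPM without Hdac2. It stood in the same order as Cyp26b1, with control highest and Hdac1-deficient lowest. Rarg fell by 0.76 without Hdac1 and had -0.13 without Hdac2 (adjusted p = 9.1e-10 and 0.054, edgeR), where it passed the test without control library 4 (adjusted p = 0.038) or Hdac2-deficient library 2 (0.042). Rara (-0.01 and -0.02) and Rxrb (-0.01 and -0.03) did not pass in either mutant. Of the listed targets of retinoic acid 4 were tested, of which 1 rose and 2 fell without Hdac1, and none rose and 3 fell without Hdac2. Meis2, a homeobox gene, was at 23.3 to 26.0 CPM in control, 2.49 to 4.53 CPM without Hdac1 and 3.52 to 4.77 CPM without Hdac2, and fell by 2.88 and 2.53 on the log2 scale (adjusted p = 1.4e-13 and 1.7e-16, edgeR). Its relative Meis1, at most 1.04 CPM in any library, fell by 2.04 and 1.93. Tgm2, a transglutaminase, fell by 0.37 without Hdac2 and had -0.02 without Hdac1 (adjusted p = 5.7e-07 and 0.66, edgeR). Cdx1 rose by 0.19 without Hdac1 (adjusted p = 7.3e-05, edgeR) and had 0.05 without Hdac2 (adjusted p = 0.14, and 0.018 without control library 1).

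**Figure D5:**
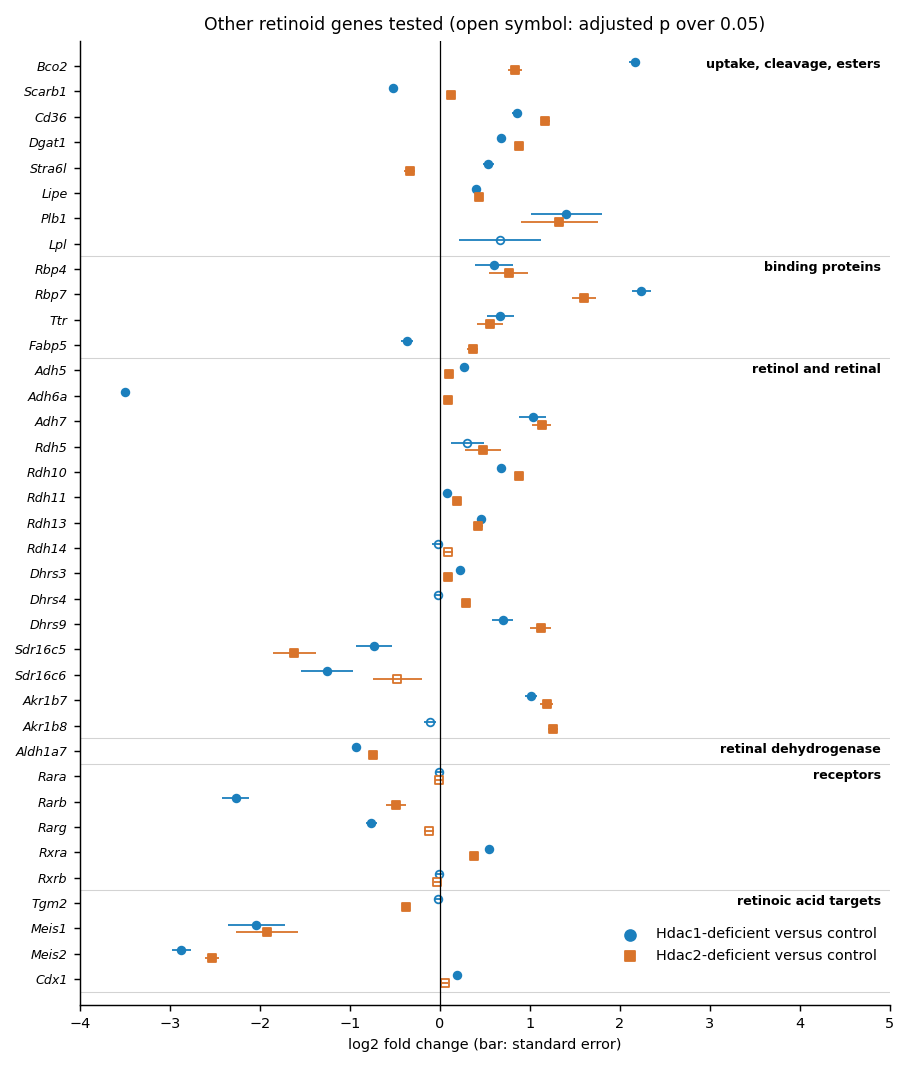
Log2 fold change with its standard error of the other retinoid genes tested, grouped by role, for each mutant against control. Filled symbols mark an adjusted p of at most 0.05. Most binding proteins and most genes of the retinol and retinal list lie above 0. Adh6a without Hdac1, Rarb without Hdac1 and Meis1 and Meis2 in both mutants lie below -2 or near it.

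Most enterocyte markers rose and all stem cell markers fell in both mutants, and markers of the other cell types of the epithelium moved less uniformly. Of 17 enterocyte markers 16 rose and none fell without Hdac1 and 17 rose without Hdac2, with medians of 0.81 and 0.65 on the log2 scale, and their summed level was 22681 to 26137 CPM without Hdac1 and 19269 to 21459 CPM without Hdac2. All 6 stem cell markers fell in both mutants, from 4637 to 4769 CPM in control to 2776 to 3222 and 2488 to 2720 CPM in sum. The 7 goblet markers summed to 1601 to 1859 CPM in control, 1728 to 1853 without Hdac1 and 2675 to 2905 without Hdac2. Of these, 3 rose without Hdac1 (Clca1 by 1.22, Zg16 by 1.36 and Muc2 by 0.99 on the log2 scale) and Tff3 fell by 0.40, while 6 rose and none fell without Hdac2. The 5 Paneth markers listed, of 7, summed to 1384 to 1634 CPM in control, 2051 to 2193 without Hdac1 and 2207 to 2338 without Hdac2. Without Hdac1 only Lyz1 rose (546.0 CPM in control and 1290.0 CPM without Hdac1, means of 4) and Ang4 fell by 0.63 on the log2 scale, with a median of -0.003 over the 5, and without Hdac2 4 rose and none fell. Of 8 enteroendocrine markers 6 rose and none fell without Hdac1, and 5 rose and 1 fell without Hdac2, and of 5 tuft markers tested 1 rose without Hdac1 and 2 fell without Hdac2. Enteroendocrine markers summed to 231.2 to 243.3, 273.4 to 310.3 and 280.3 to 304.0 CPM, and tuft markers, 1 of them not listed, to 5.93 to 7.03, 6.09 to 8.35 and 4.16 to 5.16 CPM. The immune cell sums given above did not overlap between the groups. Of the 2 immune markers tested, Itgam rose by 1.28 and 1.69 on the log2 scale. The other, Cd68, did not pass the test without Hdac1 and rose without Hdac2. Its means were 1.10 CPM in control, 0.947 CPM without Hdac1 and 1.50 CPM without Hdac2. In these bulk libraries more cells of a type and more RNA per cell cannot be told apart. The part of the cell types in the changes of the retinoid genes was not tested.

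The genes whose pattern over the 12 libraries was nearest to that of Lrat and of Cyp26b1 were sought among the 14510 genes tested, by the Euclidean distance of log2 CPM centred on control. Nearest to Lrat were Reg3g (distance 0.44), the gene of an antimicrobial lectin, Cd177 (0.45) and Zfp92 (0.48), which lay 1.15 to 1.23 above control without Hdac1 and 1.43 to 1.50 above it without Hdac2, beside 1.20 and 1.49 for Lrat on that scale. Nearest to Cyp26b1 were Nrp2 (0.86), the gene of a neuropilin, Ly6e (0.92) and Adora1 (1.04), an adenosine receptor, which lay -2.40 to -2.95 and -1.04 to -1.56 from control, beside -2.63 and -1.20 for Cyp26b1.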

How the data were processed

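RNA-Seq of 12 libraries, 4 each from control, Hdac1-deficient and Hdac2-deficient enteroids, was grouped by the labels. The library kit marks strand. The authors aligned paired reads to GRCm38 with STAR (2.4.0f1 in the submitters' processing notes) and deposited 1 table per mutant with the same 4 control libraries, limited to genes whose counts sum to 10 or more. The deposited counts are whole reads per gene, not normalized; the counting program is not given in the sources used here. Also deposited were a normalized score per library, the authors' own log2 fold changes and log2 CPM, and p-values of DESeq and edgeR, none of which was used.

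The test was edgeR's quasi-likelihood F test (4.0.16, R 4.3.3), with TMM factors, robust dispersion estimates and filterByExpr, each mutant in a fit of 8 libraries and the mutants in a fit of 12 libraries over genes listed in both tables (17972 before the filter). Both comparisons with control share the control libraries. The threshold was an adjusted p of 0.05 or less and, where stated, more than 2-fold (log2 limit 1). The SE is the log2 fold change divided by the square root of F, and 95% intervals use the t quantile at the test's degrees of freedom. CPM used the TMM factors of all 12 libraries. Lengths, positions and shared windows came from GENCODE M21, which holds 18817 (99.4%) of 18929 identifiers. The scripts were tested on simulated counts. The 10 genes and the lists were chosen with earlier results of these data known. All members were named, and of each list up to 3 tested genes with the lowest adjusted p, with any gene in a count of 5 or fewer. Some genes of the lists are not reported here. The alternatives were relative log expression factors, DESeq2 (1.42.0), no filter, no fold limit, 1 fit of all 12 libraries, a fit of the 8 mutant libraries, a replicate block and each library left out.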

Additional observations from a re-analysis of the deposited data

Results flagged for a closer look

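Single libraries stood apart from the other 3 of their group in 4 of 78 groups of 4 examined over 26 retinoid genes, where chance flags about 1 in 20. Hdac2-deficient library 4 was lowest for Cyp26b1, at 21.5 CPM against 26.0 to 26.8 CPM, and highest for Dgat1, at 521.8 CPM against 486.8 to 491.6 CPM. Control library 4 was highest for Meis1, at 1.04 CPM against 0.672 to 0.704 CPM. Hdac2-deficient library 3 was lowest for Ttr, at 3.24 CPM against 3.72 to 3.82 CPM.

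Of the same 26 genes, the 10 genes and the 16 list genes of lowest adjusted p against control, 20 differed in the direct test of Hdac1-deficient against Hdac2-deficient enteroids (edgeR, log2). Other genes of the lists, not examined here, also passed that test. Among the 10 genes these were Cyp26b1 (-1.41), Bco1 (0.997), Adh1 (0.43), Adh4 (-0.36), Rdh7 (0.36), Lrat (-0.29) and Rbp2 (-0.18). Among the 16 list genes, Adh6a (-3.60), Rarb (-1.78), Akr1b8 (-1.37), Fabp5 (-0.73), Rarg (-0.64), Cd36 (-0.32), Rdh10 (-0.21), Dgat1 (-0.21) and Aldh1a7 (-0.19) were lower without Hdac1. Bco2 (1.33), Rbp7 (0.63), Tgm2 (0.35) and Rxra (0.17) were higher without Hdac1.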

How the results depend on the processing

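Of 430 recomputed fold changes of the 10 genes, 419 kept their direction and their side of the threshold, as did 1073 of 1117 of the other retinoid genes. With no fold limit, 4 members were lower without Hdac1, 5 higher without Hdac2, and 3 higher and 4 lower between the mutants. With no filter on low counts, 1581 genes were higher over 2-fold without Hdac1 (979 with it), and 1170 higher and 622 lower without Hdac2 (764 and 398). Bco1 made 1 member higher over 2-fold between the mutants with relative log expression factors and with a replicate block, and 0 to 1 with 1 library left out. Fold changes near 0 changed sign within the range of values with 1 library left out. Without Hdac1 these were Aldh1a1 (-0.0118 to 0.0521), Tgm2 (-0.0474 to 0.0105), Rara (-0.0307 to 0.0184) and Rxrb (-0.0282 to 0.00554), without Hdac2 Rara (-0.0612 to 0.00299), and between the mutants Aldh8a1 (-0.00966 to 0.178), Meis1 (-0.357 to 0.220) and Rara (-0.0182 to 0.0422).

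Same-numbered libraries of different groups correlated at -0.05 to 0.09 in their deviations over the genes tested, 0 of 12 over 0.1. Of the 12, 6 correlated best with their own number. No label pairs the libraries, and correlations over all genes cannot decide whether the numbers do. With the replicate number as a block, Isx without Hdac1 no longer passed (-0.08, adjusted p = 0.053), and Aldh1a1 passed without Hdac2 (-0.08, adjusted p = 0.0088) and between the mutants (0.10, adjusted p = 0.015). The cause was not tested. By DESeq2, Rbp4 without Hdac1 had an adjusted p of 0.068. At 7 to 14 counts per mutant library, Aldh8a1 is known least precisely, and 3 counts (0.0979 to 0.145 CPM) set the floor.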
